A study of Homo sapiens with 12 samples.

Results

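The interaction of a MYCN and a HAND2 knockdown was examined in all 12 samples of the series, for the 12680 of 27514 listed genes that had a mean of at least 1 CPM (the reads of a gene scaled to the total reads of its library). The cells were IMR32, a human neuroblastoma line that carries extra copies of MYCN. Every group received small interfering RNA by electroporation with a Nucleofector device, and RNA was extracted 72 h later. The siCtrl group received the control siRNA, the siMYCN group the siRNA labelled siMYCN_2 and the siHAND2 group the one labelled siHAND2_3. The combined group received both, labelled siM2+siH2_3, so each target was reduced with 1 labelled siRNA and an effect of that siRNA on other transcripts cannot be told apart from the loss of its target. Each of the 4 groups held 3 samples. Nothing in the labels says that these came from separate cultures, so p-values measure the spread between these samples, which may be technical.

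MYCN is a transcription factor of the MYC family. It dimerises with MAX, binds E-box sequences and supports ribosome production and cell division, and its amplification marks high-risk neuroblastoma. HAND2 is a basic helix-loop-helix factor of the sympathetic lineage that pairs with E proteins and, with GATA3, maintains noradrenergic neuron identity. The design asks whether the changes after losing both simply add up.

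For each gene the interaction coefficient was combined minus siMYCN minus siHAND2 plus siCtrl, on the log2(CPM + 1) scale. A coefficient of 0 means that the 2 single log2 changes add, so that fold changes multiply. A gene is termed called where limma's moderated test gave an adjusted p (Benjamini-Hochberg, all genes tested) under 0.05. Fold changes on this scale understate those of genes with low values.

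The combined libraries stood apart from the others. Of their reads, 58.4%, 51.4% and 44.3% lay in listed genes, against 56.8 to 65.8% in the other 9 samples. A smaller share lowers every listed CPM of a sample at once. The median interaction over all genes was accordingly −0.18 on deposited CPM and −0.009 after each sample had been rescaled by its median ratio. Interactions were therefore tested on both scales. Coefficients and log2 changes below are on rescaled CPM unless said otherwise. The 2 listed mitochondrial transcripts made up 0.26 to 0.50% of listed CPM in the combined samples and 0.088 to 0.32% in the others. Markers of leukocytes, endothelium, epithelium, fibroblasts and Schwann cells were near 0. Of 15 markers 12 or 13 had a group mean under 1 CPM, CD3E and KRT5 were at the table's lowest value in all groups, and the summed level was 10.7 to 12.3 CPM in siCtrl, 11.7 to 13.1 with siMYCN, 9.21 to 10.3 with siHAND2 and 6.17 to 9.27 in the combined samples. Most of that sum was PDGFRB, a growth factor receptor of stromal cells, with 9.03 CPM in siCtrl and 3.52 in the combined group. Of the defining noradrenergic markers, GATA3 averaged 32.7 CPM in siCtrl, whereas the dopamine-producing enzyme gene TH was nearly absent (0.12 CPM) and DBH stood at 2.65 CPM.

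No interaction was called for the targeted genes themselves. MYCN stood at 964, 1048 and 1015 CPM in siCtrl, 671, 666 and 708 with siMYCN, 899, 844 and 802 with siHAND2 and 555, 458 and 433 with both siRNAs. The combined samples were the lowest of all 12 on both scales. On deposited CPM siHAND2 lay between siCtrl and siMYCN, but its change from siCtrl was called on neither scale. That change was −0.09 on rescaled CPM (limma adjusted p 0.26) and −0.25 on deposited CPM (adjusted p 0.086). The combined group was called below siMYCN on deposited CPM (−0.51, adjusted p 7.0e-04) but not after rescaling (−0.16, adjusted p 0.054). The interaction coefficient of MYCN was −0.07 on rescaled CPM (SE 0.09, limma adjusted p 0.69) and −0.26 on deposited CPM (adjusted p 0.35). HAND2 stood at 224, 241 and 254 CPM in siCtrl, 324, 319 and 334 with siMYCN, 54.3, 64.9 and 67.7 with siHAND2 and 86.3, 67.1 and 67.2 with both siRNAs. It was highest in siMYCN and low wherever its own siRNA was present. Its interaction coefficient was −0.02 on rescaled CPM (SE 0.13, adjusted p 0.93) and −0.21 on deposited CPM (adjusted p 0.46). HAND2 loss was therefore nearly the same with siMYCN (a log2 change of −1.79 on rescaled CPM) as without it (−1.77). MYCN is overlapped by MYCNOS and HAND2 by HAND2-AS1, both on the other strand, and without strand information their reads cannot be told apart.

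Departures from additivity were mostly negative, which means that the combined level lay below the additive one. On deposited CPM the interaction was called negative for 463 genes (3.65% of those tested) and positive for 45 (0.355%). After rescaling, 567 were called negative (4.47%) and 212 positive (1.67%). In both analyses 392 genes were negative (3.09%) and 42 positive (0.331%), and no gene had opposite calls. These 434 genes are described by kind, and 345 further genes were called after rescaling only. At an unadjusted p under 0.05 there were 2718 and 3064 genes. The signs split differently by scale, with 45 of 508 calls positive on deposited CPM and 212 of 779 after rescaling. Coefficients were small for most genes: the middle 50% of rescaled values lay between −0.153 and 0.147, and 50 of the called genes reached an absolute value of 1.

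The kinds were set by the single changes on rescaled CPM. They share the siCtrl samples with the interaction, so their sizes are a description without a test. Both single knockdowns raised 104 genes whose combined level fell short of additivity, and both lowered 53 genes that fell further than additivity when combined. Opposed single changes made another kind: 70 genes were negative and 3 positive, and all 70 rose in siMYCN and fell in siHAND2. Falls short of additivity (9 genes) and rises beyond it (6 genes) were rare among these genes called on both scales. On rescaled CPM alone they numbered 61 and 19, beside 162 less than additive rises and 87 more than additive falls. The added requirement of a call on deposited CPM, where the median coefficient was −0.18, thus removed most of them. A single knockdown alone was called for 169 genes (151 negative), and neither for 20 (14 negative). As background, 25.4% of genes were called higher and 22.5% lower in siMYCN, and 25.9% and 24.9% in siHAND2, all against siCtrl. The combined group was called higher than siMYCN for 30% of genes and lower for 26.6%, and higher than siHAND2 for 26.1% and lower for 23.6%. Leaving out combined sample 1 raised the 434 genes to 1093, of which 426 were among the 434. Leaving out any siMYCN sample, siCtrl sample 1 or 3, or siHAND2 sample 1 or 2 lowered them to between 219 and 270, and testing all listed genes without the filter lowered them to 148.

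**Figure D1:**
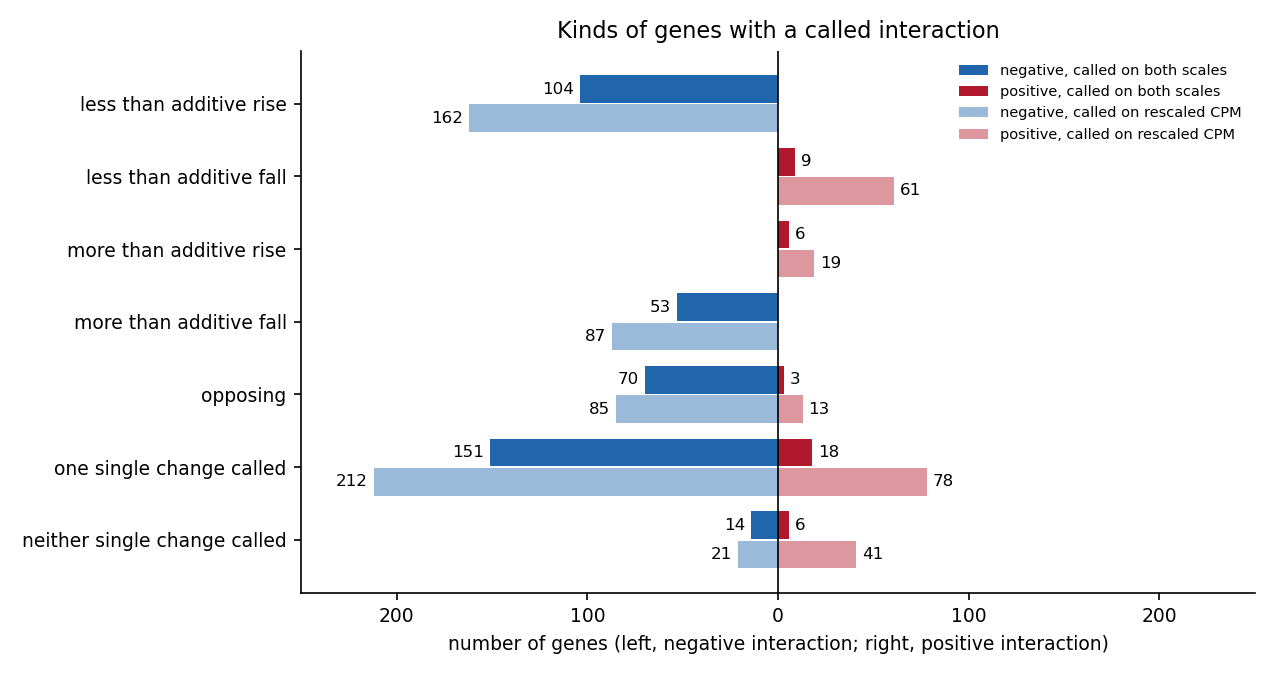
Number of genes of each kind with a called interaction, on both scales (dark bars) and on rescaled CPM alone (pale bars); bars to the left count negative and bars to the right positive coefficients, on a linear axis in genes. Negative kinds dominate on both scales, led by 151 genes with 1 single change called and 104 less than additive rises, whereas the less than additive falls grow from 9 to 61 on rescaled CPM.

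Many genes of cell division fell more than additively: 61 of 204 were called negative on both scales, beside 3.09% of all genes tested. Of 53 more than additive falls, 30 (56.6%) belonged to 6 lists of cell division genes (DNA replication, mitosis, recombination and Fanconi genes, histones, G1 regulators, and one-carbon and nucleotide synthesis), which hold 204 of the 12680 genes tested (1.61%). A further 31 list members were among the 151 negative genes with 1 single change called (20.5%). One of the 61, CCND1, did not fall but rose in siMYCN. No member had a called positive interaction on rescaled CPM. The lists were chosen with earlier results of these data known, so these shares are no independent support.

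Among DNA replication genes 17 of 38 were called negative on deposited CPM and 19 after rescaling, with median coefficients of −0.50 and −0.31. The shares of all genes tested that were called negative were 3.65% and 4.47%. MCM2, a subunit of the replicative helicase (chromosome 3, 127317200 to 127341279, hg19, plus strand), stood at 240, 244 and 230 CPM in siCtrl, 202, 211 and 192 with siMYCN, 135, 139 and 115 with siHAND2 and 70.8, 62.2 and 45.9 with both siRNAs. All combined samples lay below all others, and the mean of 59.7 ± 12.7 CPM (SD, n = 3) compares with 109 CPM if the log2 changes added. Its coefficient was −0.69 on rescaled CPM (SE 0.09, limma adjusted p 6.2e-04) and −0.88 on deposited CPM (adjusted p 0.0071). MCM3, another helicase subunit, averaged 289 ± 7.61, 250 ± 9.50, 171 ± 11.5 and 83.7 ± 17.5 CPM in the same order of groups, with a coefficient of −0.64 (adjusted p 3.1e-04). The ubiquitin ligase adaptor DTL, which limits re-replication, averaged 133 ± 5.86, 110 ± 6.09, 73.9 ± 8.98 and 31.6 ± 4.73 CPM, with the largest coefficient in size of the kind among genes with a mean of at least 5 CPM, −0.75 (adjusted p 2.8e-04). ARHGAP11A, a GTPase activating protein, averaged 104 ± 5.76, 89.4 ± 7.04, 61.3 ± 2.57 and 30.4 ± 5.45 CPM (−0.61, adjusted p 0.0014). On deposited CPM no siMYCN fall was called for MCM2, MCM3, DTL or ARHGAP11A (limma adjusted p 0.17, 0.22, 0.088 and 0.19). Helicase loading and synthesis factors also had interactions called on both scales. CDC6, CDT1 and ORC1 had rescaled coefficients of −0.55, −0.56 and −0.54, and the flap nuclease FEN1 had −0.59.

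The promoter of MCM2 is shown because it holds the MYC E-box CACGTG, in capitals, close to the start. It is RefSeq sequence of GRCh38.p14, chr3:127598161-127598420, plus strand, from 250 bases before the start to 10 after.
MCM2: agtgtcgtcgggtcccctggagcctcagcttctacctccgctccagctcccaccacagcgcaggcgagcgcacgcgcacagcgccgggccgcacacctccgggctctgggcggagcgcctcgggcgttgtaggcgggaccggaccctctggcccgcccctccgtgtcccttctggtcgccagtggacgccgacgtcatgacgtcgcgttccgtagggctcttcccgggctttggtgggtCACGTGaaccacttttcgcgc
The E-box begins at position −11, counting the start base as 0. In the windows of 300 bases searched on both strands (250 before to 50 after), 8 of 45 matched promoters of more than additive falls held CACGTG (17.8%), against 10.4% of the promoters of tested genes and 7.43% of all 27305. A match describes letters and not binding.

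RRM2 and E2F2 showed a similar end point, although siMYCN alone gave no called change in them. RRM2, the small subunit of ribonucleotide reductase, which makes DNA precursors, stood at 274, 277 and 252 CPM in siCtrl and 269, 283 and 252 in siMYCN. It stood at 208, 189 and 159 CPM in siHAND2 and at 93.5, 87.4 and 70.8 in the combined samples. The siCtrl and siMYCN samples overlapped, and the combined samples were the lowest. MYCN knockdown thus gave a log2 change of 0.01 (adjusted p 0.91) with HAND2 intact and −0.94 (SE 0.07, adjusted p 1.9e-07) with HAND2 reduced, a difference of −0.95 (adjusted p 1.1e-04) after rescaling and −1.14 (adjusted p 3.3e-04) before. E2F2, a transcriptional activator of S-phase genes, averaged 22.4 ± 1.34, 23.0 ± 1.13, 16.2 ± 1.02 and 8.19 ± 1.16 CPM from siCtrl to the combined group, with a coefficient of −0.77 (adjusted p 3.5e-04).

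Mitosis had the most negative calls of any list. Of 40, 22 were called negative on deposited CPM and 30 after rescaling, with medians of −0.64 and −0.46, and none was called positive. Among all genes tested 3.65% and 4.47% were called negative. In siMYCN alone 15 of the 40 were called lower and the median change was −0.14, while siHAND2 lowered 39 (median −0.69) and the combined knockdown 39 (median −1.33). KIF11, the kinesin that separates spindle poles, averaged 133 ± 1.64 CPM in siCtrl and 128 ± 7.03 in siMYCN, which overlapped, then 76.1 ± 7.14 in siHAND2 and 38.9 ± 9.34 in the combined group. Its coefficient was −0.73 (SE 0.10, adjusted p 5.7e-04). The spindle assembly factor TPX2, the kinetochore subunit SPC24 and the mitotic transcription factor FOXM1 had rescaled coefficients of −0.71, −0.72 and −0.70. Topoisomerase TOP2A and cyclin CCNA2 had −0.53 and −0.51. In bulk RNA, fewer dividing cells and less of these transcripts per cell cannot be told apart.

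Repair and chromatin genes of S phase followed. Of 23 recombination and Fanconi genes, 8 were called negative on deposited and 9 on rescaled CPM. Of 63 replication-dependent histone genes 10 and 11 were negative, beside 3.65% and 4.47% of all genes tested. HIST1H2BI averaged 67.2 ± 7.41, 61.1 ± 1.15, 26.6 ± 1.42 and 14.0 ± 2.09 CPM, and its coefficient was −0.59 (adjusted p 0.003). Histone genes are near-identical copies, and their read counts may be split between them. The counts moved with single samples: without siHAND2 sample 2, 23 cell division genes were called negative on both scales, and without combined sample 1, 78, against 61 with all samples. The departure of the mitosis list was −0.37, −0.50 and −0.51 in the 3 combined samples after rescaling, and that of DNA replication genes −0.29, −0.39 and −0.33. On deposited CPM the values were −0.35, −0.66 and −0.91 for mitosis, beside 0.010, −0.16 and −0.39 for all genes, so the size on that scale moved with the share of reads in listed genes.

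**Figure D2:**
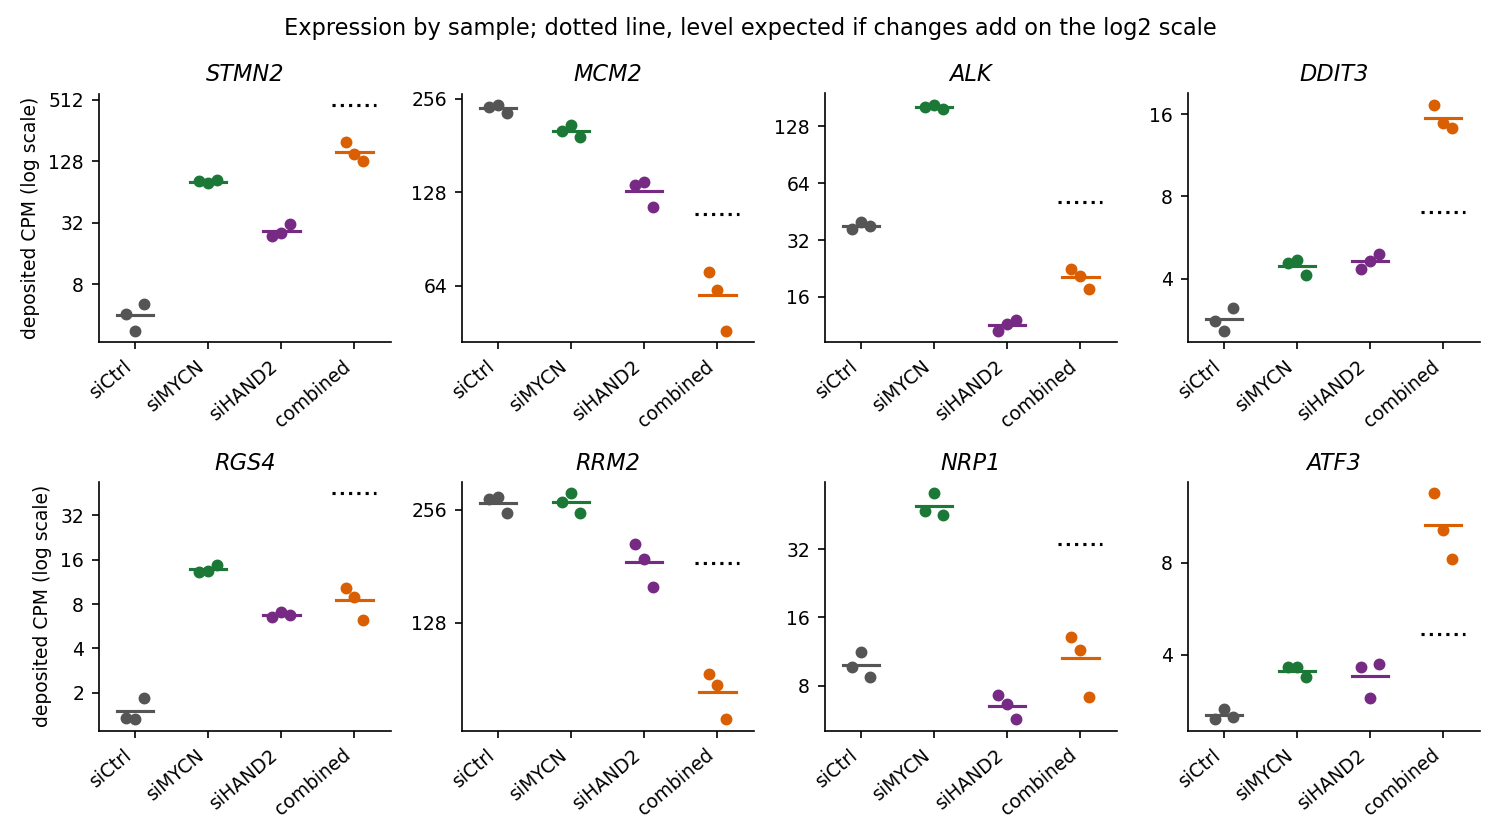
Deposited CPM of 8 genes in every sample (points, logarithmic axis), with the mean of each group of 3 (bars) and the level expected in the combined group if log2(CPM + 1) changes added (dotted). STMN2 and RGS4 rose less than expected, MCM2 and RRM2 fell below it, ALK and NRP1 also lay below it, and DDIT3 and ATF3 rose above it.

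Neuronal genes were among the rises that fell short. Of 104 less than additive rises, 24 (23.1%) were in 11 lists of neuronal genes, which hold 244 of the genes tested (1.92%). These lists also held 7 genes called positive on rescaled CPM, of which SEMA3C and PCDH9 were called on both scales. Among the 24 less than additive rises were the secretory granule genes CHGA, CHGB and SCG2 and the cytoskeletal genes DCX, PRPH and STMN4. The axon guidance receptors DCC and PLXNA2 were others. The median of the 104 coefficients was −0.62, with median single changes of 1.11 in siMYCN and 1.03 in siHAND2 and a median combined change of 1.49 where additivity gives 2.09. In most of them the knockdowns still added something: the combined mean lay above both single means for 71, between them for 29 and below both for 4. It was called above both for 56, and 16 were called against neither single knockdown.

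STMN2, a microtubule regulator of growing axons, shows an incomplete rise. It stood at 4.08, 2.78 and 5.14 CPM in siCtrl, 82.0, 78.2 and 83.2 with siMYCN, 23.7, 25.2 and 31.0 with siHAND2 and 198, 151 and 129 with both siRNAs. The 4 groups did not overlap, and the combined group was highest. Its mean of 159 ± 35.3 CPM was below the 459 CPM of additive log2 changes and above the 104 CPM of additive CPM changes, so whether STMN2 counts as less than additive depends on the scale of addition. The coefficient was −1.32 (SE 0.20, adjusted p 0.0017) after rescaling and −1.54 (adjusted p 1.2e-04) before. On linear CPM, 81 of the 104 genes also lay below the sum of the 2 single changes.

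RGS4, which quenches G protein signalling, ended below its siMYCN level. It stood at 1.35, 1.32 and 1.85 CPM in siCtrl, 13.1, 13.4 and 14.8 with siMYCN, 6.55, 7.06 and 6.74 with siHAND2 and 10.3, 8.86 and 6.22 with both siRNAs. The combined samples lay below siMYCN and, on deposited CPM, overlapped siHAND2. On rescaled CPM the RGS4 mean of 9.72 ± 1.04 in the combined group was called above the 6.91 ± 0.351 of siHAND2 (0.44, adjusted p 0.0025). At −2.09 (SE 0.14, adjusted p 7.5e-06) its rescaled coefficient was the largest in size among genes of this kind with a mean of at least 5 CPM, and on linear CPM 19.0 was expected against 8.46 ± 2.07 observed. TIMP3, a matrix metalloproteinase inhibitor, averaged 62.4 ± 2.53, 150 ± 1.00, 76.8 ± 10.5 and 72.3 ± 18.5 CPM. Adding siHAND2 to siMYCN lowered it (−0.73, adjusted p 4.1e-06), and no difference between the combined samples and siHAND2 was called (0.09, SE 0.08, adjusted p 0.40). The siHAND2 rise of TIMP3 was called on rescaled CPM (0.44, limma adjusted p 4.7e-04) but not on deposited CPM (0.29, adjusted p 0.10). TIMP3 lies inside SYN3 on the other strand.

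FAIM2, an inhibitor of death receptor signalling in neurons, rose in every knockdown, to levels that overlapped on deposited CPM. It averaged 7.27 ± 0.306 CPM in siCtrl, 25.6 ± 2.18 with siMYCN, 24.1 ± 1.95 with siHAND2 and 30.1 ± 8.71 in the combined group, where additive log2 changes give 79.6. On rescaled CPM the FAIM2 mean of the combined group was 34.4, above 23.5 with siMYCN and 24.5 with siHAND2 (adjusted p 2.6e-04 and 9.1e-04), and the coefficient was −1.22 (SE 0.13, adjusted p 1.1e-04). SOX4, SYT11 and TP53INP1 likewise had combined samples above all others on rescaled but not on deposited CPM. SOX4, a transcription factor of immature neurons, averaged 112 ± 9.17, 249 ± 8.23, 248 ± 11.8 and 284 ± 69.1 CPM, with a coefficient of −0.79 (adjusted p 7.1e-04). SYT11, a synaptotagmin of vesicle traffic, averaged 67.8 ± 1.05, 245 ± 6.70, 181 ± 13.9 and 318 ± 95.3 CPM (coefficient −0.88, adjusted p 8.5e-04). The immediate early factor JUN and the p53 target TP53INP1 belonged to the same kind, with coefficients of −0.59 (adjusted p 0.019) and −0.84 (adjusted p 2.1e-04). The cadherin CDH22 had −0.69 (adjusted p 0.046) at levels of 0.66 to 1.83 CPM, where 3 reads equal 0.047 to 0.095 CPM. The calls of JUN and CDH22 on 1 or both scales were lost without any one of the siCtrl or siMYCN samples, without siHAND2 sample 1, and for JUN also without siHAND2 sample 2 and for CDH22 without siHAND2 sample 3 or combined sample 2. On both scales the 11 lists, with 244 genes tested, had 37 negative calls, where 3.09% of all genes were called negative. The lists had 21 such calls without siMYCN sample 2 and 57 without combined sample 1.

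Genes with opposed single changes and a called interaction were mostly lower than additive. Of the 70 negative genes, which siMYCN raised and siHAND2 lowered, the combined group was called below siCtrl for 62 and above it for 2. The combined mean lay between the single means for 35 and below both for 35. Against siHAND2 alone, the combined group was called different for 35 and not called for the other 35. The median single changes were 0.78 and −0.69, so the additive median was −0.07, and the combined median was −0.73. A combined level below siCtrl follows from choosing these genes by a negative coefficient. Of all 292 genes that siMYCN raised and siHAND2 lowered, whatever their coefficient, the combined group was called below siCtrl for 167, above it for 31 and neither for 94.

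ALK, the receptor kinase mutated in familial neuroblastoma, illustrates the kind. It stood at 36.8, 39.7 and 37.9 CPM in siCtrl, 163, 167 and 159 with siMYCN, 10.6, 11.4 and 12.0 with siHAND2 and 22.5, 20.7 and 17.7 with both siRNAs. No 2 groups overlapped, and the combined samples lay between siHAND2 and siCtrl, below the 50.6 CPM of additive log2 changes. MYCN knockdown changed ALK by 2.07 (SE 0.06, adjusted p 1.4e-10) with HAND2 intact and by 0.97 (adjusted p 7.6e-08) with HAND2 reduced, a difference of −1.10 (SE 0.09, adjusted p 3.1e-05) after rescaling and −1.28 (adjusted p 1.4e-05) before. The listed span of ALK (chromosome 2, 29415640 to 30144478, minus strand) contains LOC105374389 on the same strand. The receptor kinase gene RET had a rescaled coefficient of −0.90 (adjusted p 0.0040), with changes of 1.39 in siMYCN, −0.34 in siHAND2 and 0.14 when combined.

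The ALK promoter is shown because it holds CATCTG, an E-box form bound by HAND dimers, across the start. It is RefSeq sequence of GRCh38.p14, chr2:29921577-29921836, minus strand, from 250 bases before the start to 10 after, with the match in capitals (read here as its reverse complement CAGATG).
ALK: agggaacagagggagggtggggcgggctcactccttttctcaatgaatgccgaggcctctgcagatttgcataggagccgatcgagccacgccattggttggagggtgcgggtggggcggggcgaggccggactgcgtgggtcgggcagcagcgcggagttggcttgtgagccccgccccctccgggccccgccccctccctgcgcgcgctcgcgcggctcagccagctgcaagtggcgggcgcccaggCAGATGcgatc
The match begins at position −1. CATCTG was present in 11 of 58 matched promoters of the opposing genes (19.0%), in 8.98% of those of tested genes and in 14.8% of all promoters.

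NRP1, a co-receptor for semaphorins and VEGF, stood at 9.64, 11.2 and 8.75 CPM in siCtrl, 47.5, 56.5 and 45.2 with siMYCN, 7.25, 6.62 and 5.67 with siHAND2 and 13.2, 11.5 and 7.12 with both siRNAs. Its siMYCN samples stood far above the rest, and the combined samples overlapped siCtrl and siHAND2 on deposited CPM. The combined group was nonetheless called above siHAND2 (0.78, adjusted p 1.1e-04), and on rescaled CPM above siCtrl (0.39, adjusted p 0.0096). Its coefficient was −1.45 (SE 0.17, adjusted p 2.1e-04), against −1.63 (adjusted p 5.0e-05) on deposited CPM. PTGFR, the prostaglandin F receptor, averaged 6.53 ± 0.470, 19.1 ± 0.142, 0.785 ± 0.141 and 0.894 ± 0.282 CPM. After HAND2 loss, adding siMYCN gave no called change in it (0.16, SE 0.10, adjusted p 0.17), whereas siMYCN alone gave 1.42. CNTN1, a neuronal adhesion molecule, averaged 50.6 ± 1.20, 143 ± 2.97, 30.8 ± 2.99 and 33.8 ± 10.3 CPM, with a coefficient of −1.20 (adjusted p 1.1e-04).

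SEZ6, a synaptic membrane protein, went further. It stood at 21.2, 23.1 and 20.04 CPM in siCtrl, 38.6, 33.9 and 36.0 with siMYCN, 8.58, 7.21 and 5.81 with siHAND2 and 3.90, 4.48 and 3.19 with both siRNAs. MYCN knockdown thus raised SEZ6 by 0.74 (adjusted p 5.4e-05) with HAND2 intact and lowered it by a log2 change of −0.59 (adjusted p 3.6e-04) with HAND2 reduced, with a coefficient of −1.33 (SE 0.15, adjusted p 1.6e-04). In 4 other opposing genes no difference between the combined group and siHAND2 was called. The survival gene BCL2 averaged 31.5 ± 2.74, 56.3 ± 4.22, 16.1 ± 1.71 and 15.2 ± 3.51 CPM (coefficient −0.74, adjusted p 0.0042), the proneural factor NEUROG2 44.4 ± 5.73, 75.9 ± 3.03, 32.8 ± 1.53 and 28.2 ± 7.00 (−0.82, adjusted p 0.0026) and the muscarinic receptor CHRM2 9.71 ± 1.08, 18.5 ± 2.84, 2.25 ± 0.151 and 2.45 ± 0.468 (−0.64, adjusted p 0.023). TNR, a neural matrix glycoprotein, averaged 0.962 ± 0.217, 3.06 ± 0.252, 0.432 ± 0.111 and 0.404 ± 0.142 CPM (coefficient −0.997, adjusted p 0.0026). The call of CHRM2 was lost without siCtrl sample 1 or 3, siMYCN sample 1 or 2, or siHAND2 sample 2.

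A related set rose in siMYCN without a called change in siHAND2. It held 51 of the 392 negative genes, in which a combined level below siMYCN follows from the choice. MAOA, which breaks down monoamines, stood at 26.0, 26.0 and 24.4 CPM in siCtrl, 59.5, 65.5 and 55.8 with siMYCN, 20.2, 22.5 and 19.3 with siHAND2 and 18.9, 13.9 and 9.43 with both siRNAs. The combined samples were the lowest of all, and the MAOA coefficient was −1.60 (SE 0.15, adjusted p 6.6e-05). CALB1, a calcium buffer, averaged 4.11 ± 0.818, 20.3 ± 1.33, 3.77 ± 0.345 and 5.14 ± 1.40 CPM (coefficient −1.55, adjusted p 1.1e-04). TGFB2, a growth factor, averaged 7.23 ± 0.317, 25.6 ± 1.62, 5.93 ± 0.219 and 8.03 ± 1.23 CPM (−1.14, adjusted p 7.0e-05), and it overlaps TGFB2-AS1. VIP, a neuropeptide, was low, at 0.441 to 0.645 CPM in siCtrl, 2.24 to 4.69 with siMYCN, 0.095 to 0.19 with siHAND2 and 0.20 to 0.31 with both siRNAs, with a coefficient of −1.32 (adjusted p 0.0041). The cell cycle regulator CCND1 rose in siMYCN as well, from 304 ± 14.0 to 463 ± 4.48 CPM, but averaged 290 ± 18.6 in siHAND2 and 268 ± 53.2 in the combined group (−0.55, adjusted p 0.0017). The call of CCND1 was lost without siCtrl sample 1, siHAND2 sample 1 or 2, or siMYCN sample 2.

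Counted over all kinds, 225 of the 392 negative genes (57.4%) rose in siMYCN, beside 25.4% of all genes tested. The median change of these 225 on MYCN knockdown was 0.86 with HAND2 intact and 0.18 with HAND2 reduced. A second group, which shared 70 genes with the first, fell in siHAND2. It held 211 of the 392 (53.8%), beside 24.9% of all genes tested. Its median change on HAND2 knockdown was −0.68 without siMYCN and −1.26 with it. Both differences between medians follow in part from choosing genes by a negative coefficient. Of the 211, 88 showed no called change in siMYCN alone. KCNQ5, a potassium channel, belonged here, with means of 14.4 ± 1.11, 15.4 ± 0.673, 1.72 ± 0.710 and 0.585 ± 0.203 CPM and a coefficient of −0.79 (adjusted p 0.026). CD44, a hyaluronan receptor, averaged 6.26 ± 0.857, 6.38 ± 0.455, 2.80 ± 0.758 and 0.973 ± 0.321 CPM (−0.89, adjusted p 0.013). PDGFRB averaged 9.03 ± 0.585, 8.11 ± 0.835, 6.58 ± 0.248 and 3.52 ± 0.828 CPM (−0.48, adjusted p 0.049). The splicing-related gene HNRNPUL2 was called higher in siHAND2 than in siCtrl and lower in the combined group than in siHAND2, with means of 28.7 ± 2.40, 31.9 ± 1.48, 31.3 ± 4.69 and 20.9 ± 3.76 CPM (−0.53, adjusted p 0.036). Its rise in siHAND2 was called on rescaled CPM only (limma adjusted p 0.032, against 0.50 on deposited CPM). On at least 1 scale, KCNQ5, PDGFRB and HNRNPUL2 each lost their call without siCtrl sample 1 or 3 or siMYCN sample 2 or 3, and all but KCNQ5 also without siHAND2 sample 1 or 2. Without combined sample 3 all of them lost it, without siMYCN sample 1 KCNQ5 and HNRNPUL2, and without siCtrl sample 2 or siHAND2 sample 3 PDGFRB.

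**Figure D3:**
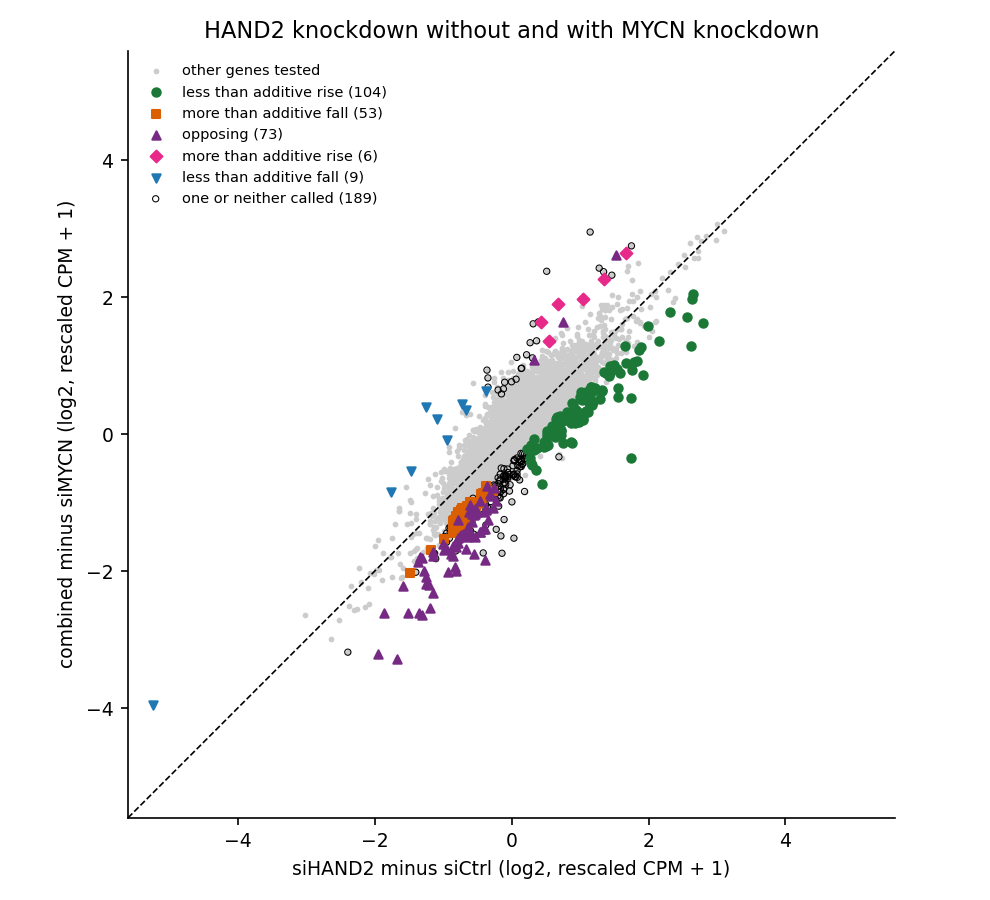
Change on HAND2 knockdown without siMYCN (horizontal axis, siHAND2 minus siCtrl) and with it (vertical axis, combined minus siMYCN), in log2 of rescaled CPM + 1, for all 12680 genes (grey) and the 434 with a called interaction, marked by kind; the dashed line is equality and the axes share no samples. Less than additive rises lie below the line on the right, more than additive falls and most opposing genes lie below it on the left, and VEGFD is the point at −5.23 and −3.95.

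Rises beyond additivity were few among genes called on both scales and included stress response genes. DDIT3, the CHOP transcription factor of the integrated stress response, in which ATF4 turns on adaptive genes when translation is curbed, stood at 2.81, 2.58 and 3.14 CPM in siCtrl, 4.56, 4.67 and 4.12 with siMYCN, 4.34, 4.65 and 4.93 with siHAND2 and 17.3, 14.8 and 14.2 with both siRNAs. The single knockdowns overlapped each other, and the combined samples stood apart at 15.5 ± 1.62 CPM, where additive log2 changes give 7.00. Its coefficient was 1.23 (SE 0.13, adjusted p 1.1e-04) after rescaling and 1.04 (adjusted p 3.0e-04) before. DDIT3 overlaps MIR616 and, on the other strand, MARS. ATF3, a stress-induced repressor, stood at 2.45, 2.65 and 2.49 CPM in siCtrl, 3.64, 3.63 and 3.36 with siMYCN, 3.64, 2.88 and 3.71 with siHAND2 and 13.5, 10.3 and 8.21 with both siRNAs, again above all others. Its coefficient was 1.21 (SE 0.14, adjusted p 2.0e-04) and 1.02 on deposited CPM (adjusted p 0.0023). The siHAND2 rise of ATF3 was called on rescaled CPM (limma adjusted p 0.0021) but not on deposited CPM (adjusted p 0.058).

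ATF3's promoter is shown because it was 1 of the 2, among the 6 genes of this kind, that held the ATF4 element TGATGNAAN, the other being SEMA3C. It is RefSeq sequence of GRCh38.p14, chr1:212565157-212565416, plus strand, from 250 bases before the start to 10 after, and the capitals mark the ATF4 element and, further on, a CATCTG match read as its reverse complement CAGATG.
ATF3: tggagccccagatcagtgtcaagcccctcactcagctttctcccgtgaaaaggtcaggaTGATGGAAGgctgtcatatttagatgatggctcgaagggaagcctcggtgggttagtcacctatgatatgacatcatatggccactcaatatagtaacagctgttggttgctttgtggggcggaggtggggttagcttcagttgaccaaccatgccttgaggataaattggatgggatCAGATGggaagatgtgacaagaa
These begin at positions −191 and −13 and do not overlap. The ATF4 element was present in 1.53% of promoters of tested genes and 3.67% of all promoters, and the kind holds 6 genes only. No match was found in the DDIT3 window.

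Of 21 integrated stress response genes tested, 18 had positive coefficients on rescaled CPM and 7 were called positive. Over all genes tested 1.67% were called positive after rescaling and 0.331% on both scales. The median was 0.34 after rescaling and 0.15 before. On both scales 3 were called: DDIT3, ATF3 and the cystine transporter SLC7A11, which instead fell in both single knockdowns (−0.54 and −0.37) and returned to 0.09 when combined, a coefficient of 1.00 (adjusted p 0.0045). ATF4 itself, the pseudokinase TRIB3, the phosphatase subunit PPP1R15A and HERPUD1 were called after rescaling only, at 0.75, 0.57, 0.54 and 0.34. The list's departure in the 3 combined samples was 0.37, 0.33 and 0.22 after rescaling, but 0.40, 0.18 and −0.18 on deposited CPM, so in sample 3 its sign depends on the scale.

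Other rises beyond additivity lay outside the stress list. RAPGEF6, an exchange factor for RAP GTPases, stood at 28.6, 30.9 and 28.5 CPM in siCtrl, 33.4, 34.7 and 36.1 with siMYCN, 67.4, 66.7 and 71.4 with siHAND2 and 151, 141 and 115 with both siRNAs, with no overlap between groups and a coefficient of 0.92 (SE 0.09, adjusted p 7.0e-05). The siMYCN rise of RAPGEF6 was called on rescaled CPM (limma adjusted p 0.0050) but not on deposited CPM (adjusted p 0.11). SEMA3C, a secreted guidance cue, averaged 0.174 ± 0.0477, 0.766 ± 0.154, 2.66 ± 0.230 and 8.40 ± 2.17 CPM (0.97, adjusted p 0.0017). Its coefficient rests on the constant of 1 added to CPM, since with 0.1 the deposited-scale value was −0.06. ANKFN1 averaged 2.58 ± 0.498, 4.73 ± 1.02, 5.78 ± 0.439 and 16.9 ± 1.55 CPM (0.93, adjusted p 0.028). The calls of ANKFN1 and SEMA3C were lost without siCtrl sample 2 or 3, siHAND2 sample 1 or 2, siMYCN sample 3 for SEMA3C or samples 1 or 2 for ANKFN1, or combined sample 2, and for ANKFN1 also without combined sample 3.

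Less than additive falls were few among genes called on both scales. PXDN, a peroxidase of the extracellular matrix, stood at 29.5, 33.7 and 26.2 CPM in siCtrl, 17.8, 17.8 and 15.9 with siMYCN, 16.3, 15.5 and 17.1 with siHAND2 and 17.7, 16.2 and 18.6 with both siRNAs. The knockdown groups overlapped on deposited CPM. On rescaled CPM the combined mean of PXDN, 20.7, was called above the 15.7 of siMYCN (0.36, adjusted p 0.016), and the coefficient was 1.03 (SE 0.16, adjusted p 0.0021). KIF1C, a kinesin motor, averaged 20.04 ± 1.46, 7.53 ± 0.229, 5.84 ± 0.463 and 3.85 ± 0.491 CPM (0.94, adjusted p 1.1e-04) and overlaps LOC102724009 on the other strand. VEGFD, a lymphatic growth factor, stood at 60.4, 58.6 and 67.9 CPM in siCtrl, 29.3, 26.6 and 35.1 with siMYCN, 0.039, 0.77 and 0.91 with siHAND2 and 0.81, 0.76 and 0.63 with both siRNAs. With HAND2 reduced it lay below 1 CPM with or without siMYCN, where the added constant limits any further fall, and the coefficient of VEGFD of 1.28 (adjusted p 0.0085) was no longer called with a constant of 0.1. The first siHAND2 value is below 3 reads. VEGFD also shares its strand with the readthrough entry PIR-FIGF.

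In a last small kind neither single change was called on rescaled CPM. SMOC1, a secreted calcium-binding protein, stood at 8.45, 7.33 and 8.16 CPM in siCtrl, 9.47, 8.10 and 10.99 with siMYCN, 8.26, 8.27 and 8.29 with siHAND2 and 4.22, 4.22 and 3.02 with both siRNAs. Neither single change was called (0.23 and 0.19, adjusted p 0.074 and 0.13), the combined samples were below all others, and the coefficient was −1.03 (SE 0.14, adjusted p 8.1e-04). PCDH9, a protocadherin, moved the other way, from 3.19 ± 0.181, 2.68 ± 0.124 and 3.26 ± 0.505 to 4.93 ± 0.629 CPM (0.82, adjusted p 0.0044). The positive calls of LINC01000 (0.81), LOC100996724 (0.999) and STAG3L5P-PVRIG2P-PILRB (1.03), and of GOLGA8A (1.17) among genes with 1 single change called, concern noncoding, readthrough or multicopy entries whose reads can be shared with neighbours or copies. STAG3L5P-PVRIG2P-PILRB averaged 7.77, 5.42, 5.36 and 7.42 CPM, so its combined mean was near that of siCtrl: both of its single falls were called on deposited CPM (adjusted p 0.014 and 0.0063), and the combined change was called on neither scale. Each of these and PCDH9 lost its call on at least 1 scale when single samples were left out, among them any of the siMYCN samples.

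Ribosome biogenesis genes, part of the classical MYC programme, were close to additive. In the 40 ribosome biogenesis genes limma called 0 interactions on either scale, with 2 genes at an unadjusted p under 0.05 on deposited and 6 on rescaled CPM. Of all 12680 genes tested, 2718 and 3064 were under that threshold. Their median change on rescaled CPM was −0.70 in siMYCN, where 38 fell, −0.24 in siHAND2, where 29 fell, and −1.0026 in the combined group, where 38 fell. The median coefficient was 0.0055, and the deposited median of −0.18 matched that of all genes to 2 decimals. Aminoacyl tRNA synthetases (20 genes), chaperonins (15) and translation initiation factors (35) had rescaled medians of −0.08, −0.06 and −0.04. In all, 0 of the 392 members of 8 growth lists were among the 434 genes, where 3.09% of all genes tested were negative and 0.331% positive. The lists were those 4, both kinds of ribosomal protein, proteasome subunits and nuclear genes of oxidative phosphorylation. After rescaling only, 13 were called positive and EIF3C was called negative (−0.33, adjusted p 0.016). The 13 made up 6.13% of the 212 positive calls on that scale, while the lists held 3.09% of the genes tested.

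Other growth lists leaned positive on rescaled CPM, and cytosolic ribosomal protein genes did so most. All 85 cytosolic genes tested had positive coefficients after rescaling, with a median of 0.36, and 9 were called (60 at an unadjusted p under 0.05). On that scale 1.67% of all genes tested were called positive. On deposited CPM the median was 0.17, 13 coefficients were negative and limma called 0 (17 at an unadjusted p under 0.05). Their median change was −0.50 in siMYCN, 0.13 in siHAND2 and −0.02 combined. RPS3 and RPL5, for example, had −0.59 and −0.68 in siMYCN and 0.23 and −0.06 in the combined group, with coefficients of 0.65 (adjusted p 0.010) and 0.49 (adjusted p 0.049). The departure of this list was 0.26, 0.22 and 0.57 in the 3 combined samples and was highest in sample 3, which had the smallest share of reads in listed genes. The part of that share in the result was not tested. These short transcripts have many processed pseudogenes that can share their reads. Of 77 nuclear genes of oxidative phosphorylation 68 had positive rescaled coefficients, with a median of 0.20, and limma called 0 (30 at an unadjusted p under 0.05, and 2 on deposited CPM). Of 78 mitochondrial ribosomal protein genes 65 had positive rescaled coefficients, with a median of 0.15. Among these limma called 3 positive (20 at an unadjusted p under 0.05). On deposited CPM their median was −0.01, 41 coefficients were negative and limma called 0.

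**Figure D4:**
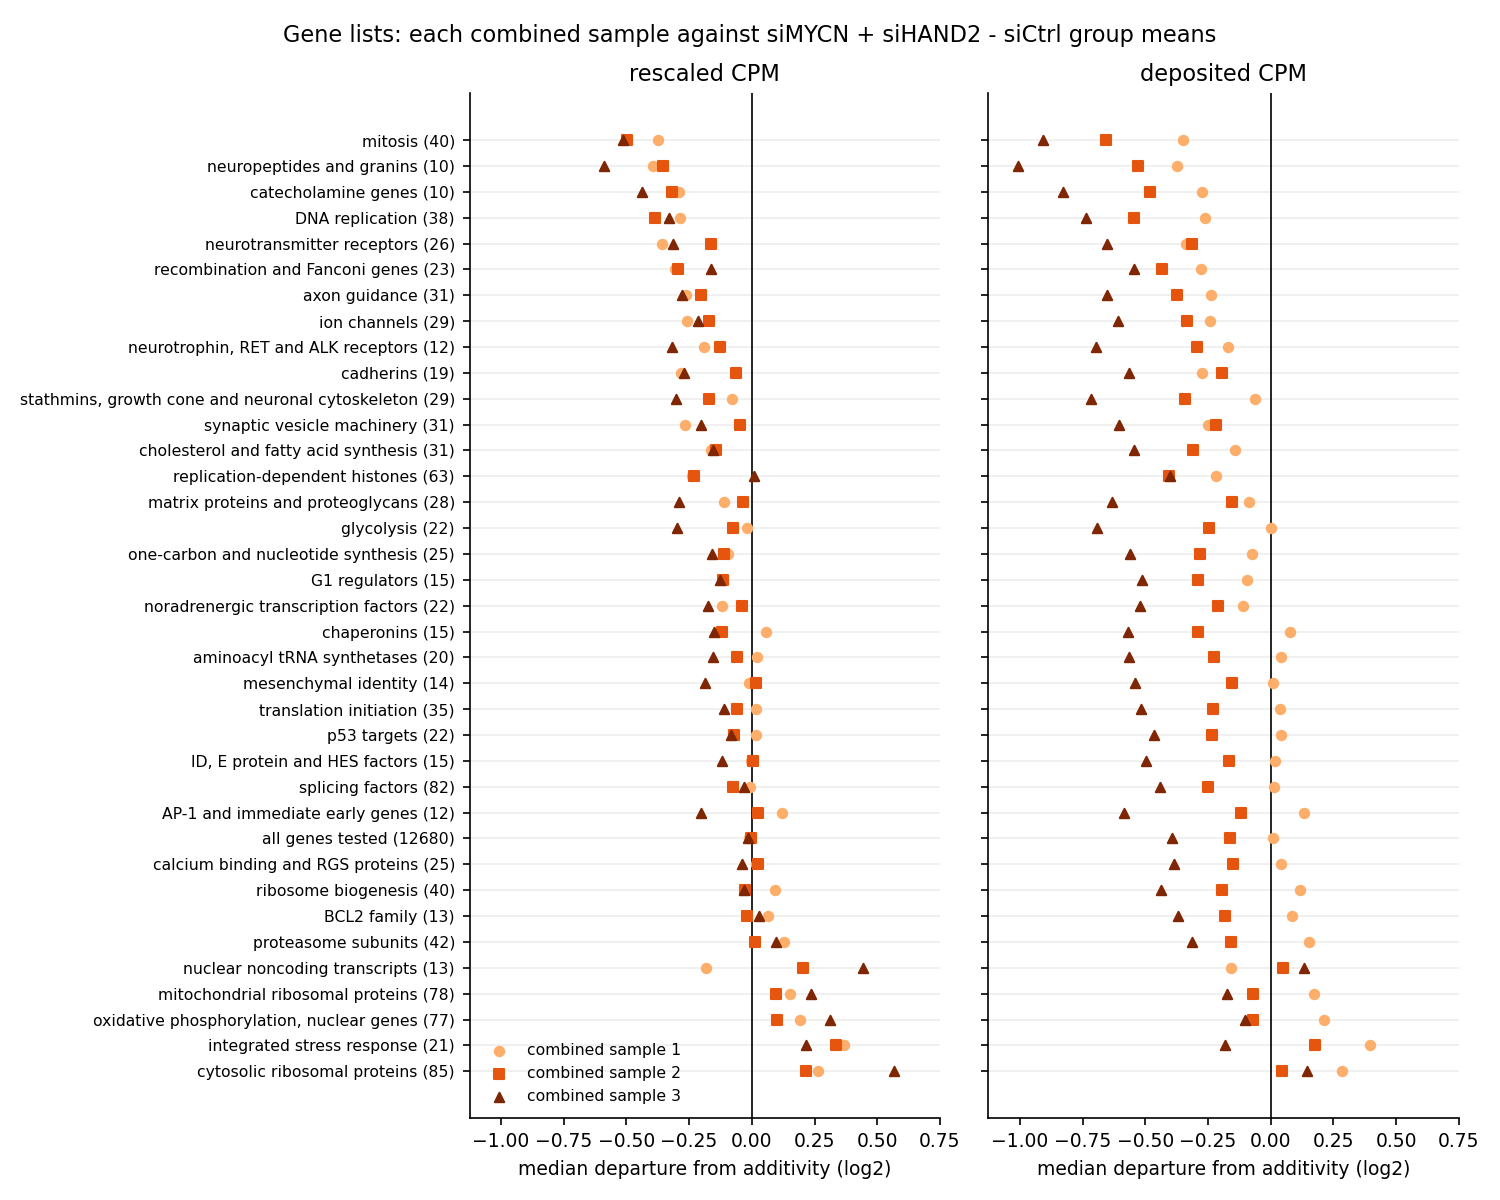
Median departure of each combined sample from the additive level of the group means, in log2, for each gene list with at least 10 genes tested (number tested in brackets), on rescaled CPM (left) and deposited CPM (right). Mitosis genes lie at −0.37 to −0.51 and cytosolic ribosomal protein genes at 0.22 to 0.57 on the left, and on the right sample 3 lies lowest for most lists, as it does for the median of all genes (−0.39).

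For most genes the effect of 1 knockdown persisted in the presence of the other. Of 3286 genes called higher in siHAND2, 2501 (76.1%) were also called higher when siMYCN was present, 769 were not called and 16 were called lower. Among 3153 called lower, 2390 (75.8%) were called lower again and 16 were called higher. The HAND2 effects with and without siMYCN rest on separate samples and correlated at r = 0.86 across genes, which are not independent replicates. MYCN effects were carried over somewhat less completely: 2169 of 3224 rises (67.3%) and 2020 of 2847 falls (71.0%) were called again with siHAND2, 28 and 13 were called in the opposite direction, and r was 0.76. Over all genes tested, the combined group was called higher than siMYCN for 30% and lower for 26.6%. Against siHAND2 these background shares were 26.1% and 23.6%. The difference between the carried-over shares was not tested. Each named gene with a called interaction had all 3 combined samples on the same side of the additive level on both scales (51 of 51).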

How the data were processed

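RNA-seq values came from the table that the authors deposited, in CPM (the reads of a gene scaled to the total reads of its library) for 27514 genes with hg19 positions. Per the submitters' processing notes, STAR 2.5.1 and Partek are named with hg19 (GRCh37). The counting rule, its use of strand and any filter are not given in the sources used here. Samples were grouped by their titles, 3 per group. Depth, estimated from the steps between low CPM values, was 31.6 to 64.2 M reads, with 18.2 to 37.5 M in listed genes. A level of 3 reads equals 0.047 to 0.095 CPM, for counting error only. Of the values under 20 reads, 90.6 to 92.1% came out as whole reads to within 0.1 read, so no count model was used.

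Values were log2(CPM + 1) for the 12680 genes with mean CPM of at least 1. A model of the 4 groups was fitted with limma 3.58.1 (lmFit, eBayes with trend) in R 4.3.3 on all samples, with 8 residual degrees of freedom, two-sided, on deposited CPM and on CPM rescaled per sample by the median, over 10192 genes with mean CPM of at least 5, of its ratio to the gene's geometric mean. The fit was tested on simulated data. Alternatives were other added constants and filters, a block by sample number, no trend, sample weights, stricter thresholds, scaling by the listed sum and each sample left out. Coefficients in the text are rescaled unless said otherwise. Gene lists and members were chosen with earlier results of these data known, and no list was tested as a set. Named genes were both targets, the 4 largest absolute coefficients of each kind with mean CPM of at least 5, and per list the called member with the largest coefficient on either side. Small RNAs were counted but not named, and some other genes that the rule selects are not reported here. Other genes given as examples were chosen after their values were seen. Listed spans over 2.5 Mb, which merge distant copies, were not counted as overlaps. DTL overlaps INTS7, E2F2 LOC101928163, HNRNPUL2 HNRNPUL2-BSCL2, and CHRM2, KCNQ5 and PCDH9 noncoding genes. Promoter sequences are RefSeq, GRCh38.p14, a build other than that of the table, matched by symbol for 10145 of the tested genes.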

Additional observations from a re-analysis of the deposited data

Results flagged for a closer look

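By the interaction term, the effect of 1 knockdown differed with and without the other for 508 genes on deposited CPM and 779 on rescaled CPM. The named genes among them follow with their rescaled coefficients in log2, grouped by the single changes called on rescaled CPM. Both single knockdowns raised these genes, and the combined level fell short of additivity: RGS4 (−2.09), STMN2 (−1.32), FAIM2 (−1.22), TIMP3 (−1.18), TP53INP1 (−0.84), SOX4 (−0.79), SYT11 (−0.88), CDH22 (−0.69) and JUN (−0.59). Both lowered DTL (−0.75), MCM2 (−0.69), MCM3 (−0.64) and ARHGAP11A (−0.61), which fell beyond additivity when combined. On deposited CPM no siMYCN fall of these genes was called (limma adjusted p 0.088 to 0.22). Falls in VEGFD (1.28), PXDN (1.03) and KIF1C (0.94) were less than additive, and rises in DDIT3 (1.23), ATF3 (1.21), ANKFN1 (0.93), RAPGEF6 (0.92) and SEMA3C (0.97) exceeded additivity. On deposited CPM the siHAND2 rises of TIMP3 and ATF3 and the siMYCN rise of RAPGEF6 were not called. In the following genes siMYCN and siHAND2 acted in opposite directions: NRP1 (−1.45), SEZ6 (−1.33), PTGFR (−1.25), CNTN1 (−1.20), CHRM2 (−0.64), ALK (−1.10), TNR (−0.997), NEUROG2 (−0.82) and BCL2 (−0.74). A single knockdown alone was called for MAOA (−1.60), CALB1 (−1.55), GOLGA8A (1.17), TGFB2 (−1.14), RRM2 (−0.95), E2F2 (−0.77), KIF11 (−0.73), VIP (−1.32), KCNQ5 (−0.79), CD44 (−0.89), CCND1 (−0.55), PDGFRB (−0.48), HNRNPUL2 (−0.53) and HIST1H2BI (−0.59). Neither was called for STAG3L5P-PVRIG2P-PILRB (1.03), SMOC1 (−1.03), LOC100996724 (0.999), LINC01000 (0.81) and PCDH9 (0.82).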

How the results depend on the processing

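Genes called on deposited, rescaled and both scales numbered 508, 779 and 434. In that order of scales they numbered 156, 530 and 148 without the filter on low CPM, 169, 298 and 149 at an adjusted p under 0.01, and 69, 50 and 40 with absolute coefficients of at least 1. With the replicate block, a term for the sample number, they numbered 1282, 1262 and 855, and all 434 were among the 855. Whether the numbers pair the samples is not settled: no label says that they mark a shared culture, batch or day, although library labels run in order of the numbers. Deviations from group means correlated on deposited CPM between −0.19 and 0.44 for same-numbered samples of different groups (mean 0.17, 11 of 18 pairs over 0.1), against a mean of −0.085 for other pairs, and 8 of 12 samples correlated best with their own number. Sample weights gave 6755, 1879 and 1650, but that estimate stopped before convergence. Leaving out 1 sample at a time gave 263 to 4443, 415 to 1436 and 219 to 1093.

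By kind, the counts below follow the order less than additive rises, less than additive falls, more than additive rises, more than additive falls, opposing changes, 1 change called and neither called (104, 9, 6, 53, 73, 169 and 20 in the report). The replicate block gave 246, 20, 7, 109, 113, 298 and 62, and sample weights 352, 114, 55, 224, 180, 558 and 167. No filter gave 20, 11, 3, 9, 34, 64 and 7, an adjusted p under 0.01 39, 6, 3, 6, 43, 49 and 3, and absolute coefficients of at least 1 8, 4, 2, 0, 13, 11 and 2. With a constant of 0.1 less than additive falls numbered 5, and with a constant of 5 they numbered 24 and more than additive rises 11. A mean CPM of at least 5 left 3 less than additive falls and 12 genes with neither change called. Leaving out 1 sample at a time gave 55 to 279, 6 to 25, 3 to 12, 15 to 151, 48 to 111, 82 to 379 and 5 to 136.

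Counts on both scales with 1 sample left out, chosen after seeing the data, were 23 to 78 for cell division lists (61 with all), 7 to 29 for mitosis (22), 9 to 21 for DNA replication (17), 21 to 57 for neuronal lists (37), 3 to 5 for the stress response (3, or 7 on rescaled CPM alone) and 0 to 1 for ribosome biogenesis (0). Scaling by the listed sum called 795 genes, including all 434. SEMA3C reversed on deposited CPM with a constant of 0.1 (−0.0599). In up to 43 fits per gene, RGS4, STMN2, FAIM2, TIMP3, DDIT3, NRP1, SEZ6, PTGFR, CNTN1, MAOA, CALB1, TGFB2, SMOC1, ALK and VIP kept their calls, and PDGFRB lost its in 26. The causes were not tested. Depth limits genes under about 1 CPM.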
